A study of Rattus norvegicus with 113 samples.

Results

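The comparison set rat cortex 24 hr after traumatic brain injury (TBI) against the cortex of naive rats collected for the same time point. Arrays were chosen by their labels, as those of injured cortex at 24 hr (4 arrays) and those of naive cortex at 24 hr (4 arrays), which made 8 of the 113 arrays of the series. The TBI rats, adult male Sprague-Dawley, were anesthetized with isoflurane, trephined over the right parasagittal cortex and given a fluid percussion injury, in which a pulse of fluid strikes the closed dura. The labels give the injury as moderate and the methods as severe. The methods describe this surgery and its anesthesia for sham and TBI rats and do not say how the naive rats were handled. The difference from naive therefore holds the injury together with the anesthesia, the surgery and the recovery. A 3rd group of 4 arrays, the sham rats, had the same anesthesia and surgery without the fluid pulse, and its values are given beside those of the leading genes. The tissue was a piece of cortex cut near the injury site. RNA of each sample was amplified from its poly(A) tail, labeled with 1 dye and hybridized to an Agilent rat array. The labels number the samples of a group but do not say more about their source, so the p-values measure the spread between these samples.

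A blow to the cortex tears vessels and axons and kills cells at once, and over the following hours microglia, the resident macrophages of the brain, and astrocytes, which supply and buffer neurons, change state. Neutrophils enter from the blood early and monocytes follow, drawn by chemokines. Cytokines such as interleukin 1 act on glia through NF-kB, and those of the interleukin 6 family through JAK and STAT3, to raise acute phase genes, while heat shock and heme-handling genes answer to damaged protein and to blood.

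The groups lay on different slides. All naive and sham arrays of 24 hr were on 1 slide and all TBI arrays on another, so slide and injury cannot be told apart. The share of probes well above background was 52.1 to 59.5% on the naive arrays and 59.72 to 60.98% on the TBI arrays. The means were 56.8% ± 3.29 (SD, n = 4) and 60.6% ± 0.572 (SD, n = 4), a difference of 3.78 percentage points (exact permutation test, two-sided, p = 0.0286, the smallest that 4 against 4 allows). No pair of arrays in a group correlated below 0.969 over log2 values. TBI replicate 3 stood apart from the other TBI arrays: over all probes, its deviations from the 12-array mean correlated with theirs at 0.00 to 0.07, against 0.33 to 0.67 among the other 3. In bulk tissue, fewer cells of a type and less RNA per cell cannot be told apart.

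Levels below are log2 signals relative to the 75th percentile of each array, and differences are TBI minus naive on that log2 scale with their standard errors. A gene was tested when all 4 naive arrays or all 4 TBI arrays read its probe as well above background, and it was called at an adjusted p below 0.05 by limma with Benjamini-Hochberg adjustment over all tested probes. Of 25922 tested probes, 4179 were called, which is 16.1%, with 1823 higher (7.03%) and 2356 lower (9.09%) in TBI. By gene, with the brightest probe standing for each, 1961 of 11755 genes were called (16.7%), 948 higher (8.06%) and 1013 lower (8.62%). The rises were the larger changes. In 79 of the 948 higher genes no naive array was above background, so 75 have only a lower bound on their fold and the others none. With these at their bound, 499 higher genes passed 2-fold, 162 passed 4-fold and 20 passed 16-fold, with a median difference of 1.05. Of the 1013 lower genes, 143 passed 2-fold and 4 passed 4-fold, with a median of -0.63. All 4 TBI arrays lay on 1 side of all 4 naive arrays in 2559 genes (21.8%). An unadjusted p below 0.05 together with a 1.4-fold difference was met by 5611 probes (21.6%).

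The number of calls by adjusted p rested on single arrays. The count of probes past 1.4-fold with an unadjusted p below 0.05 moved less, from 4554 to 7212 with 1 array left out. Leaving out TBI replicate 1 left 1187 called probes, and TBI replicates 4, 2 and 3 in turn left 1418, 2521 and 7077. Without naive replicates 2, 3 and 4 in turn, 1602, 2554 and 1931 were called. Of the 155 called genes named by rule here, 68 kept their call with any 1 of the 8 arrays left out, 83 lost it without TBI replicate 1 and 3 lost it without TBI replicate 3. For the called genes named below it is stated whether they kept their call in all 8 of these fits.

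**Figure D1:**
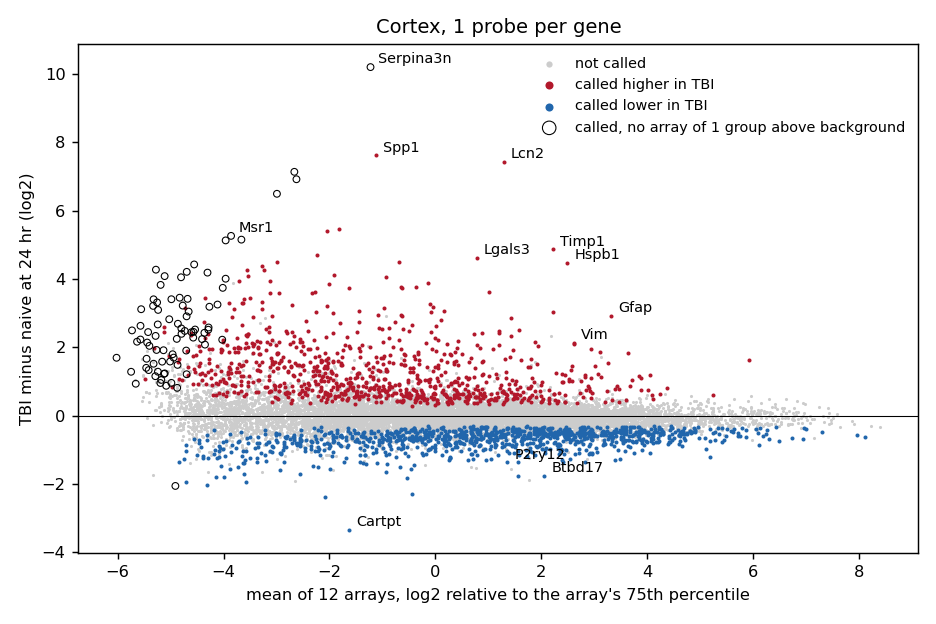
Each point is 1 gene of the cortex at 24 hr, with its mean log2 level over the 12 arrays (naive, sham and TBI) across and the log2 difference TBI minus naive up; red and blue points passed an adjusted p of 0.05 by limma. Open points had no array of 1 group above background, so their height is no measured fold. Of the filled points named, Spp1 is at 7.62 and Lcn2 at 7.42, while Cartpt is at -3.34.

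The leading rises and falls were picked among called genes whose groups did not overlap, so the lack of overlap was set by the choice. The rises were led by Serpina3n, Lcn2 and Spp1. Serpina3n, a secreted inhibitor of serine proteases and a marker of reactive astrocytes, had levels of -6.50, -7.23, -6.04 and -7.41 on the naive arrays and 2.98, 3.68, 3.59 and 3.36 on the TBI arrays. No naive array was above background for it and all TBI arrays lay close together and far above. It was at least 319-fold higher in TBI (adjusted p = 0.000425). Lcn2, lipocalin 2, which binds bacterial iron carriers and is made by neutrophils and reactive astrocytes, had levels of -2.32, -2.77, -3.19 and -2.25 in naive and 5.03, 4.49, 3.85 and 5.76 in TBI cortex. The groups were far apart, and the rise was 7.42 ± 0.86 (adjusted p = 0.00813). Spp1, osteopontin, a secreted phosphoprotein of activated macrophages, was at -4.73, -5.53, -4.63 and -4.88 in naive, where 1 array was above background, and at 3.74, 1.74, 0.63 and 4.58 in TBI cortex. TBI replicates 1 and 4 were the high ones, and the rise was 7.62 ± 1.17 (adjusted p = 0.00886). All of them kept their call with any array left out.

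Timp1, the inhibitor of matrix metalloproteases, stood at -0.41, -0.56, -0.58 and -0.49 in naive and at 5.10, 4.08, 3.70 and 4.52 in TBI cortex, a rise of 4.87 ± 0.75 (adjusted p = 0.00886). The naive arrays lay close together and far below every TBI array. Lgals3, galectin 3, a sugar-binding protein of phagocytes, was at -1.36, -1.47, -1.78 and -1.66 in naive and 3.87, 2.34, 1.76 and 4.21 in TBI cortex, a rise of 4.61 ± 0.68 (adjusted p = 0.00886), with TBI replicates 1 and 4 above the other TBI arrays. The kininogen genes Kng2l1, Kng1 and Kng2, precursors of bradykinin, were not above background on any naive array and were at least 28.3-fold, 28.3-fold and 20.3-fold higher. Kng2l1 was at 0.98, 0.45, 1.43 and -3.24 on the TBI arrays, with replicate 4 far below the other 3. These genes are near copies of each other, so which of them the probes measured is uncertain. Timp1, Lgals3 and the kininogens kept their calls with any array left out.

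Slpi, an inhibitor of neutrophil elastase, rose by 5.47 ± 1.06, and TBI replicate 3, at -2.36, was well below the other TBI arrays, which lay at 0.46 to 2.40. The scavenger receptor Msr1 and the inhibitory receptor Lilrb4 were not above background in naive cortex and were each at least 15.1-fold higher, and Hk3, the hexokinase of leukocytes, at least 9.27-fold. Ccl2 and Ccl7, chemokines that call monocytes, rose by 5.40 ± 1.23 and 4.69 ± 1.12, and H19, an imprinted RNA without a coding frame, by 4.49 ± 1.07 (adjusted p = 0.0177, 0.0202 and 0.0205). Ccl2 was at 2.83, -1.08, -1.85 and 3.54 on the TBI arrays, so replicates 1 and 4 held most of the rise. Ccl2 lost its call without TBI replicate 1 (adjusted p = 0.061) and without TBI replicate 4, as did Ccl7 and H19, which also lost theirs without naive replicate 2. Msr1 lost its call without TBI replicate 1 (adjusted p = 0.0525). Slpi, Lilrb4 and Hk3 kept theirs.

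The promoters of genes that moved together are shown for the letters they hold. The 250 bases before the start of each gene were taken from RefSeq (GRCr8), where 37 of 54 named genes that rose past 4-fold by the fitted difference had an entry. They were searched on both strands for AP-1 (TGANTCA), CRE (TGACGTCA, which does not hold the AP-1 letters), STAT (TTCCNGGAA), C/EBP (TTGCGCAA or TTGCACAA) and the NF-kB motif. Among the 37, 5 held AP-1, 5 NF-kB, 2 C/EBP and 1 CRE. Over all genes with an entry, AP-1 letters were in 4.67% of 9595 tested genes, 7.11% of 759 called higher, 3.26% of 827 called lower and 11% of 146 called higher past 4-fold. For NF-kB the shares were 4.37, 6.32, 5.08 and 6.85%. For STAT they were 1.09, 1.05, 0.484 and 0%, where 0 of 146 promoters held it, and for C/EBP 0.75, 1.19, 0.484 and 2.74%. For CRE they were 2.92, 1.84, 2.42 and 2.05%. No test was run on these shares, and a match of letters is a description. Of the 12 that held any of these motifs, Lcn2, Bcl3, Ccl7 and Ripk3 came among the first in the order of naming. They are printed with Serpina3n, the gene with the largest rise, 5′ to 3′ on the strand of the gene with motif letters in capitals. Socs3, also among the first, holds NF-kB beginning 161 bases before the start and is not printed. Serpina3n (chr6:129088142-129088391, plus strand) holds none of the motifs. Lcn2 (chr3:36081781-36082030, minus strand) holds NF-kB beginning 242 bases before the start, Bcl3 (chr1:88613556-88613805, minus strand) holds NF-kB at 38, Ccl7 (chr10:67513845-67514094, plus strand) holds AP-1 at 73, and Ripk3 (chr15:33262026-33262275, minus strand) holds AP-1 at 64.
Serpina3n: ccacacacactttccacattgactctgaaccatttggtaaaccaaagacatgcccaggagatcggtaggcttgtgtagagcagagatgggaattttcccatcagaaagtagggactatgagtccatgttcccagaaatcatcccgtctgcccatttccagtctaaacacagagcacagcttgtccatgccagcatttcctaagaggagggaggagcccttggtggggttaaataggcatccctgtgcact
Lcn2: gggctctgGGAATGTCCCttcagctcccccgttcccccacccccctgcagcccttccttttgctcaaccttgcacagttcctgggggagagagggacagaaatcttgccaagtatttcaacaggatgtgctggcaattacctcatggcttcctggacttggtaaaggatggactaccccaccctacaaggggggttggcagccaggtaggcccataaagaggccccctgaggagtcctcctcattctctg
Bcl3: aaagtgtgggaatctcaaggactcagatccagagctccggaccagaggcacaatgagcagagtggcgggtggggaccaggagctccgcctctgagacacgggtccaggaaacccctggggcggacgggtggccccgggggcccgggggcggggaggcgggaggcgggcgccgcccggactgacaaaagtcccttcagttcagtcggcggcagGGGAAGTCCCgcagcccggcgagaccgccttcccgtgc
Ccl7: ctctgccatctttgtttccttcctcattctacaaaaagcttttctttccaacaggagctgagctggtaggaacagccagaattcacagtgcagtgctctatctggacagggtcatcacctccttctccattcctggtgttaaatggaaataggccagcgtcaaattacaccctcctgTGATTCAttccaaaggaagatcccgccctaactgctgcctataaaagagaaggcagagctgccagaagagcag
Ripk3: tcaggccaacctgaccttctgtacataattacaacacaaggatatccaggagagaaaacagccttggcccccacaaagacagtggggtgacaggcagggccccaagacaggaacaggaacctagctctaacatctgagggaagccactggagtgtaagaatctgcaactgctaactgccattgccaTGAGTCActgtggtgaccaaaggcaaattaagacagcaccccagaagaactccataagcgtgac

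**Figure D2:**
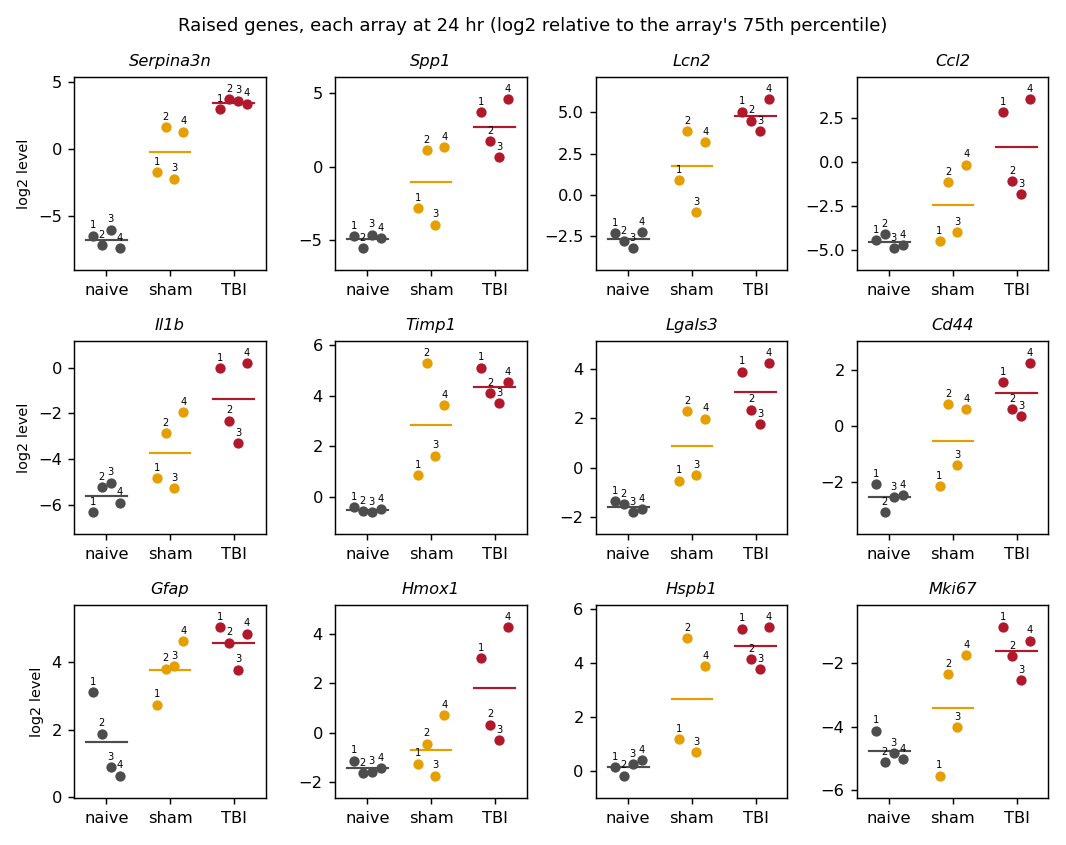
Log2 levels of 12 raised genes on each array of the naive, sham and TBI groups at 24 hr, relative to the 75th percentile of the array; numbers are replicates and lines are group means. TBI replicates 1 and 4 and sham replicates 2 and 4 are the high arrays of their groups for Spp1, Ccl2, Il1b and Hmox1, while Serpina3n is at a like level on all TBI arrays.

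The largest falls were smaller than the largest rises. Cartpt, the CART neuropeptide, was at -0.15, 0.31, -0.10 and 0.22 in naive and at -2.81, -3.65, -3.72 and -2.89 in TBI cortex. The groups were far apart and Cartpt fell by 3.34 ± 0.51 on the log2 scale (-3.34, adjusted p = 0.00886). Btbd17, a BTB domain gene, was at 3.00, 2.87, 2.79 and 2.76 in naive and 0.83, 1.38, 2.04 and 0.10 in TBI cortex (difference -1.77 ± 0.33, adjusted p = 0.011), with TBI replicate 3 nearest to naive. Trpm4, a calcium-activated cation channel, was at -0.13, 0.30, -0.40 and -0.14 in naive and -2.28, -1.75, -1.04 and -1.88 in TBI cortex (difference -1.64 ± 0.23, adjusted p = 0.00886). Col26a1, a collagen, differed by -1.71 ± 0.19 (adjusted p = 0.00813), at -1.49 to -2.25 in naive and -3.13 to -3.92 in TBI cortex. Edn3, an endothelin, differed by -1.94 ± 0.41 and Mei1, a gene of meiosis, by -1.59 ± 0.25 (adjusted p = 0.014 and 0.00894). All 6 kept their call with any array left out.

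The other 9 genes among the 15 largest falls lost their call without at least 1 array. C14h1orf146 (-2.39 ± 0.68), Adrb3, the beta 3 adrenergic receptor (-1.95 ± 0.60), Acacb, acetyl-CoA carboxylase beta (at least 2.74-fold lower, with no TBI array above background), and Qdpr-ps1, a pseudogene that can share signal with its parent gene (-1.80 ± 0.54), lost it in 6 or 7 of the 8 fits that left out 1 array, with adjusted p up to 0.102, 0.123, 0.0816 and 0.115. Rgs11 (-1.72), Mitf (-1.59) and Vof16 (-1.83) lost it in 5, with adjusted p up to 0.104, 0.0679 and 0.0724, and only 1 of the 2 probes of Mitf and of Vof16 was called. Pamr1 (-2.04) lost it without naive replicate 2, naive replicate 4 or TBI replicate 1 and Grid2ip (-1.81) without TBI replicate 1 or 4, with adjusted p up to 0.0549 and 0.0521. Naive replicate 4 of Rgs11 was at -0.68 against -2.97 to -3.29 on the other naive arrays.

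**Figure D3:**
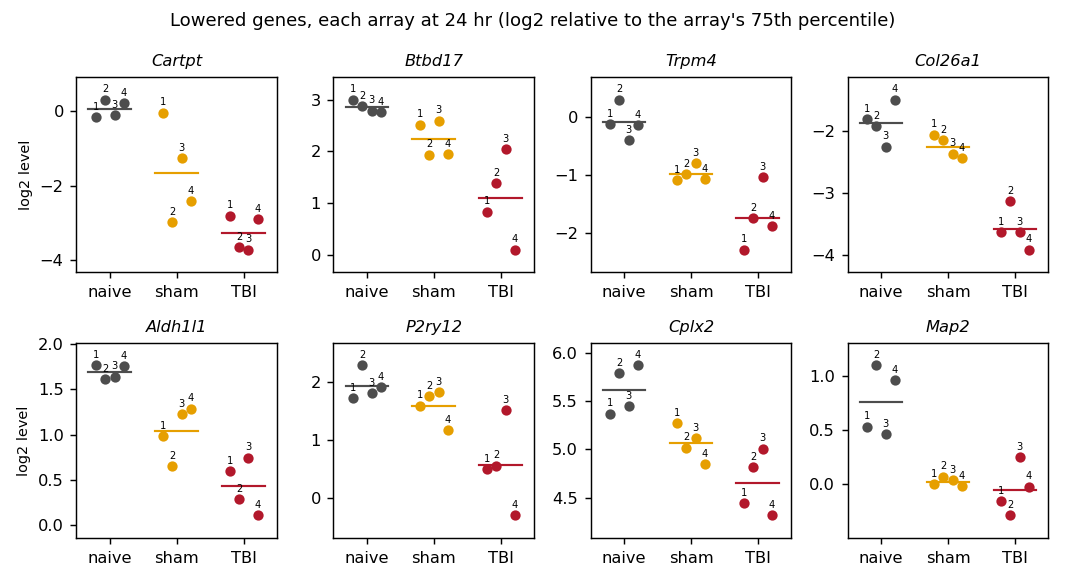
Log2 levels of 8 lowered genes on each array of the naive, sham and TBI groups at 24 hr, relative to the 75th percentile of the array; numbers are replicates and lines are group means. The lowest naive array lies above the highest TBI array in each panel, which the rule of choice required for Cartpt, Btbd17, Trpm4 and Col26a1. TBI replicate 3 is the TBI array nearest to naive for Btbd17, Trpm4, Aldh1l1, P2ry12, Cplx2 and Map2.

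Astrocyte genes moved both ways. Of 30 tested genes of a reactive astrocyte list, 20 rose, 1 fell and 9 were not called, with a median difference of 1.83, or 1.76 with genes at their bound, against -0.02 over all tested genes. Gfap, the astrocyte intermediate filament, was at 3.11, 1.89, 0.90 and 0.65 in naive and 5.04, 4.59, 3.78 and 4.85 in TBI cortex. Naive replicate 1 was the high naive array, the groups did not overlap, and the rise was 2.93 ± 0.53 (adjusted p = 0.0103). Vim, vimentin, rose by 2.12 ± 0.34 (adjusted p = 0.00894), and Cd44, the hyaluronan receptor, by 3.73 ± 0.63 (adjusted p = 0.00926). S100b, a calcium-binding protein of astrocytes, went the other way, from 7.10, 6.91, 6.72 and 6.77 to 6.11, 6.08, 6.42 and 5.97 (difference -0.73 ± 0.12, adjusted p = 0.0092). Gfap, Vim, Cd44 and S100b kept their call with any array left out. Of the 30 genes, 5 passed the background filter only through the TBI arrays. Rises numbered 12 without TBI replicate 1, and with the filter required in both groups 16 of 25 rose.

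Of 21 tested genes of an astrocyte homeostasis list, which holds genes of transport, coupling and metabolism in the resting state, 8 fell and 13 were not called, with a median of -0.35. Aldh1l1, a folate enzyme used as an astrocyte marker, was at 1.77, 1.62, 1.64 and 1.76 in naive and 0.59, 0.29, 0.74 and 0.10 in TBI cortex, a difference of -1.26 ± 0.17 (adjusted p = 0.00886) that kept its call with any array left out. Gjb6, connexin 30, Slc4a4, a bicarbonate carrier, and Ntsr2, a neurotensin receptor, differed by -1.13 ± 0.33, -1.08 ± 0.28 and -0.75 ± 0.21. These 3 lost their call without TBI replicate 1 (adjusted p = 0.0996, 0.0826 and 0.106) and under 3 or more of the other leave-outs. The water channel Aqp4 (-0.16 ± 0.18) and the glutamate carrier Slc1a2 (-0.21 ± 0.14) were not called. The count of falls was 3 without TBI replicate 1 or 4, 4 without naive replicate 4, 5 without naive replicate 1, naive replicate 2 or TBI replicate 2, and 14 without TBI replicate 3. It was 2 with the naive arrays of 2 weeks as controls, and 5 with quantile normalization, with the replicate block, with the sham arrays left out of the fit or with no filter.

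Chemokine and interleukin 1 genes rose in part. Of 28 tested genes of a cytokine and chemokine list, 15 rose, 2 fell and 11 were not called (median 1.60). Il1b was at -6.30, -5.23, -5.03 and -5.90 in naive, where 1 array was above background, and at 0.00, -2.32, -3.30 and 0.20 in TBI cortex. TBI replicates 1 and 4 were again high, and the rise of 4.26 ± 0.86 (adjusted p = 0.0124) kept its call with any array left out. Tnf, tumor necrosis factor, was at -3.36, -3.82, -3.11 and -3.72 in naive and -1.65, -2.56, -3.07 and -1.14 in TBI cortex, where replicate 3 lay just above the highest naive array. It rose by 1.3995 ± 0.35 (adjusted p = 0.0226), and lost its call without TBI replicate 1 (adjusted p = 0.0759), TBI replicate 4 or naive replicate 2 or 4. Cxcl12, the chemokine that holds cells in place, differed by -0.98 ± 0.27 with overlapping groups, was called on 1 of 3 probes, and lost its call without TBI replicate 1 (adjusted p = 0.0925), TBI replicate 2 or 4 or naive replicate 2, 3 or 4. Il6 was not above background on all arrays of either group and was not tested. In the list, 16 of the 28 passed the filter only through the TBI arrays, and with the filter required in both groups 6 of 12 rose and 3 fell. In the list the rises numbered 8 without TBI replicate 1 and 9 without TBI replicate 4 or naive replicate 2.

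Of 27 tested cytokine receptor and JAK-STAT genes, 15 rose and 12 were not called (median 1.23, or 1.18 with genes at their bound). Socs3, the feedback inhibitor of STAT3 signaling, was at -2.35, -2.67, -2.37 and -2.40 in naive and 2.75, 0.25, -0.46 and 2.69 in TBI cortex, a rise of 3.75 ± 0.77 (adjusted p = 0.0126). The naive arrays were tight, and TBI replicates 1 and 4 lay well above replicates 2 and 3. Ccr2, the monocyte receptor of Ccl2, was at -3.39, -3.27, -4.24 and -3.42 on the TBI arrays and not above background on any naive array, so it was at least 2.52-fold higher (adjusted p = 0.011). Both kept their call with any array left out. Tnfrsf12a, the TWEAK receptor, and Il1r2, the decoy receptor of interleukin 1, rose by 2.93 ± 0.66 and 3.12 ± 0.84, and lost their call without TBI replicate 1 (adjusted p = 0.0586 and 0.0953), Il1r2 also without TBI replicate 4 or any naive array. The number of rises was 2 without TBI replicate 1, 4 without TBI replicate 4, 7 without naive replicate 2 and 9 without naive replicate 3 or 4. Of the 27, 7 passed the filter only through the TBI arrays, and with the filter required in both groups 10 of 20 rose.

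Among NF-kB and Toll-like receptor genes, 10 of 25 rose and 15 were not called (median 0.36). Cd14, the coreceptor of bacterial lipopolysaccharide, was at -2.14, -2.59, -2.20 and -1.93 in naive and 2.49, 0.69, 0.06 and 2.96 in TBI cortex (difference 3.76 ± 0.72, adjusted p = 0.0111). Bcl3, the NF-kB cofactor whose promoter is printed above, rose from -4.44, -4.31, -4.23 and -4.15, with 3 naive arrays above background, to -0.26, -1.50, -2.20 and -0.27 (difference 3.22 ± 0.52, adjusted p = 0.00898). Lbp, which hands lipopolysaccharide to Cd14, rose by 3.60 ± 0.77 (adjusted p = 0.0144). These 3 kept their call with any array left out. Tlr1 rose by 2.89 ± 0.69 and lost its call without TBI replicate 1 (adjusted p = 0.0691), TBI replicate 4 or naive replicate 4. The count of rises was 4 without TBI replicate 1 or 4 and 6 without naive replicate 4, and 6 of 20 with the filter required in both groups.

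Cell death and inflammasome genes rose in 13 of 22 cases, with 9 not called (median 0.92). Ripk3, the kinase of necroptosis, was at -3.77, -4.00, -3.67 and -3.62 in naive and -0.16, -1.34, -1.88 and -0.56 in TBI cortex, a rise of 2.78 ± 0.50 (adjusted p = 0.0102) that kept its call with any array left out. Bcl2a1, a survival gene of leukocytes, rose by 2.26 ± 0.50, Pycard, the inflammasome adaptor ASC, by 1.61 ± 0.35 and the inflammatory caspase Casp4 by 1.61 ± 0.41. All 3 lost their call without TBI replicate 1 (adjusted p = 0.0557, 0.0513 and 0.0815), and Casp4 also without TBI replicate 4 or naive replicate 2, 3 or 4. Rises numbered 1 without TBI replicate 1, 4 without TBI replicate 4, 6 without naive replicate 2 or 4 and 8 without naive replicate 1. Of the 22, 5 passed the filter only through the TBI arrays, and with the filter required in both groups 11 of 17 rose.

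Complement genes rose in 10 of 22 cases, with 12 not called (median 0.78). Serping1, the C1 inhibitor, was at 0.35, -0.53, 0.02 and 0.26 in naive and 3.19, 2.54, 2.15 and 1.86 in TBI cortex, a rise of 2.41 ± 0.44 (adjusted p = 0.0106). C1s, the C1 protease, rose by 1.79 ± 0.28 (adjusted p = 0.0089), from -1.38 to -1.75 in naive to between -0.22 and 0.72 in TBI cortex. Neither lost its call when any 1 array was left out. C3, the central component, was at 0.41, -0.58, 0.21 and -0.74 in naive and 1.97, 1.15, 1.60 and 1.33 in TBI cortex (difference 1.69 ± 0.45, adjusted p = 0.0282), and lost its call without TBI replicate 1 (adjusted p = 0.0886), TBI replicate 4 or naive replicate 2 or 4. The receptors C5ar1 (2.46 ± 0.53) and C3ar1 (1.71 ± 0.37) lost theirs without TBI replicate 1 (adjusted p = 0.0513 and 0.0502). In the list the rises numbered 5 without TBI replicate 1.

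Of 22 acute phase genes on the array, 11 were tested, 6 rose and 5 were not called (median 2.62). Besides Serpina3n, Lcn2 and Lbp, Cp, ceruloplasmin, the copper-carrying ferroxidase, rose by 2.79 ± 0.46 (adjusted p = 0.00902) from -1.72, -2.11, -1.51 and -1.02 to 1.75, 1.16, 1.38 and 0.52, and kept its call with any array left out. Ptx3, pentraxin 3, rose by 3.28 ± 0.88 and lost its call without TBI replicate 1 (adjusted p = 0.0922), TBI replicate 4 or naive replicate 2, 3 or 4. Of the 11, 3 passed the filter only through the TBI arrays, and with the filter required in both groups 3 of 8 rose.

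Most genes of a monocyte and macrophage list were higher in TBI cortex. Whether their RNA came from cells of the blood or from resident microglia was not tested. Of 32 tested monocyte and macrophage genes, 29 rose, 1 fell and 2 were not called, with a median of 2.07, or 1.96 with genes at their bound. The median over the list on each array, relative to the naive mean, was 2.74, 1.73, 1.28 and 2.68 on the TBI arrays and -0.12 to 0.23 on the naive arrays. Clec7a, the beta-glucan receptor dectin 1, was at -5.24, -5.72, -5.10 and -5.81 in naive, with 1 array above background, and -0.37, -1.51, -2.34 and -0.09 in TBI cortex (difference 4.39 ± 0.73, adjusted p = 0.0091). Clec4a2, a lectin receptor of myeloid cells, rose by 4.28 ± 0.84 (adjusted p = 0.0117). Itgb2, the beta 2 integrin of leukocytes, rose from -1.28, -1.90, -1.78 and -1.77 to 0.29, -0.19, -0.67 and 0.59 (1.69 ± 0.34, adjusted p = 0.0124), and Ncf1, a subunit of the phagocyte oxidase, by 1.38 ± 0.28 (adjusted p = 0.0123). All 4 kept their call with any array left out. Ctss, cathepsin S, a protease of microglia, differed by -0.71 ± 0.16 and lost its call without TBI replicate 1 or 4 (adjusted p up to 0.0542). Of the 32 genes, 9 passed the filter only through the TBI arrays, and with the filter required in both groups 20 of 23 rose. The number of rises was 19 without TBI replicate 1.

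Of 19 neutrophil genes on the array, 9 were tested and 8 rose, with 1 not called (median 1.83). S100a9 and S100a8, the calprotectin subunits, rose by 3.89 ± 0.85 and 3.86 ± 1.08. S100a9 was at -2.25, -1.38, -2.58 and -1.57 in naive and 3.22, 1.92, -0.41 and 3.06 in TBI cortex, where replicate 3 was nearest to naive. S100a9 lost its call without TBI replicate 1 (adjusted p = 0.0545) or 4, while S100a8 kept its call in 1 of the 8 leave-outs (adjusted p up to 0.107). Of the 9, 3 passed the filter only through the TBI arrays, and with the filter required in both groups 5 of 6 rose. The count of rises was 3 without TBI replicate 1 or 4, 4 without naive replicate 2 or 3, and 5 without naive replicate 1 or TBI replicate 2.

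Genes of resting microglia moved both ways. Of 20 tested genes of a homeostatic microglia list, 3 rose (15%), 3 fell (15%) and 14 were not called, with a median of 0.07. Over all tested genes 8.06% rose and 8.62% fell. P2ry12 and P2ry13, receptors by which microglia sense nucleotides, went down. P2ry12 was at 1.73, 2.28, 1.81 and 1.91 in naive and 0.50, 0.56, 1.51 and -0.29 in TBI cortex (difference -1.36 ± 0.30, adjusted p = 0.0165), and P2ry13 at -1.65, -1.54, -1.38 and -1.53 and at -3.23, -2.91, -2.16 and -3.86 (difference -1.52 ± 0.30, adjusted p = 0.0119). TBI replicate 3 was nearest to naive in both. Tyrobp, an adaptor of activating receptors, rose by 1.53 ± 0.33 (adjusted p = 0.0142) and Irf8, a transcription factor of microglia, by 1.45 ± 0.28 (adjusted p = 0.0115). P2ry13 and Irf8 kept their call with any array left out, P2ry12 lost it without TBI replicate 1 (adjusted p = 0.0522) or naive replicate 2, and Tyrobp without TBI replicate 1 (adjusted p = 0.0512). Cx3cr1, the fractalkine receptor (-0.13 ± 0.10), Csf1r, the receptor of colony stimulating factor 1 (0.08 ± 0.12), and Aif1, IBA1 (0.65 ± 0.24, adjusted p = 0.0779), were not called. Rises numbered 1 without TBI replicate 1.

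Of 20 genes of T and B cells on the array, 11 were tested, 4 rose, 1 fell and 6 were not called. Cd8a, a coreceptor of cytotoxic T cells, was not above background in naive cortex and at -1.72, -3.68, -5.06 and -1.17 in TBI cortex, at least 4.02-fold higher (adjusted p = 0.0121). Ccl5, a chemokine of T cells, rose from -2.28, -2.46, -2.94 and -2.81 to -1.16, -0.78, -1.07 and -1.10 (1.60 ± 0.26, adjusted p = 0.0091). Both kept their call with any array left out. Cd3d, a part of the T cell receptor complex, rose by 0.67 ± 0.15 and lost its call without TBI replicate 1 (adjusted p = 0.0574). Gzmb, granzyme B, was called with no naive array above background and no usable bound on its fold, and Cd4, also made by microglia in rats, differed by -0.63 ± 0.17 on 1 of 2 probes; both kept their call in 1 of the 8 leave-outs (adjusted p up to 0.109 and 0.0943). In the list the rises numbered 2 without TBI replicate 1 and 7 without TBI replicate 3, and 2 of 6 with the filter required in both groups.

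Antigen presentation rose in part. Of 8 tested MHC class 2 genes, 6 rose and 2 were not called (median 1.60). RT1-DMb, which loads peptides onto class 2 molecules, was at 0.35, -0.04, 0.04 and 0.12 in naive and 2.18, 1.47, 1.23 and 1.90 in TBI cortex (1.58 ± 0.29, adjusted p = 0.0105) and kept its call with any array left out. Cd74, the invariant chain, rose by 1.63 ± 0.45, RT1-Da by 1.94 ± 0.50 and the costimulator Cd86 by 1.98 ± 0.42, and all 3 lost their call without TBI replicate 1 (adjusted p = 0.098, 0.081 and 0.0507), Cd74 and RT1-Da in at least 6 of the 8 leave-outs. The count was 2 without TBI replicate 1 and 3 without TBI replicate 2 or 4 or naive replicate 2, 3 or 4. Of 15 MHC class 1 and antigen processing genes, 7 rose and 8 were not called (median 0.77). The immunoproteasome subunits Psmb9 and Psmb8 rose by 1.55 ± 0.36 and 1.79 ± 0.55, the peptide carrier Tap1 by 1.01 ± 0.27 on 1 of 2 probes and RT1-A2 by 1.07 ± 0.34, and all lost their call without TBI replicate 1 or 4, with adjusted p up to 0.0625, 0.13, 0.0923 and 0.144. Psmb9, Psmb8, Tap1 and RT1-A2 kept their call in 5, 1, 3 and 1 of the 8 leave-outs. RT1 genes are near copies of each other and their values are uncertain. The class 1 count was 9 without TBI replicate 3, 3 or fewer without any other TBI array and 2 or fewer without any naive array, and without TBI replicate 1 limma called 0 of 15, while 10 of 15 had an unadjusted p below 0.05 with all arrays.

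Of 31 tested interferon response genes, 14 rose and 17 were not called (median 0.85). Ifitm3, which blocks virus entry, was at 0.24, -0.09, -0.09 and 0.33 in naive and 2.72, 1.95, 1.65 and 2.28 in TBI cortex (2.06 ± 0.41, adjusted p = 0.0123). Gbp2, a guanylate binding protein, was at -0.49, -0.54, -0.48 and -0.30 in naive and 2.24, 1.30, 1.01 and 1.61 in TBI cortex (1.99 ± 0.40, adjusted p = 0.0124). Neither lost its call when any 1 array was left out. Ifitm1 rose by 2.47 ± 0.52 and Oasl, a gene of the oligoadenylate synthase family, was at least 2.2-fold higher, and these lost their call without TBI replicate 1 (adjusted p = 0.0503 and 0.0507). The number of rises was 3 without TBI replicate 1, 6 without TBI replicate 4 or naive replicate 4, and 7 without naive replicate 2 or 3.

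A part of the neuronal genes fell. Of 36 tested neuron and synapse genes, 10 fell and 26 were not called, with a median of -0.46. Cplx2, complexin 2, which clamps vesicle fusion, was at 5.37, 5.79, 5.45 and 5.87 in naive and 4.45, 4.82, 5.01 and 4.32 in TBI cortex (difference -0.97 ± 0.17, adjusted p = 0.0103). Map2, a microtubule protein of dendrites, was at 0.53, 1.09, 0.46 and 0.96 in naive and -0.15, -0.29, 0.25 and -0.02 in TBI cortex (difference -0.81 ± 0.16, adjusted p = 0.0116). Cplx2 and Map2 kept their call with any array left out. Nefm, the medium neurofilament, differed by -0.74 ± 0.19 and lost its call without TBI replicate 1 (adjusted p = 0.0746), TBI replicate 4 or naive replicate 2, 3 or 4. Snap25 (-0.21 ± 0.19) and Slc17a7, the vesicular glutamate carrier (-0.19 ± 0.18), were not called. The count of falls was 4 without TBI replicate 1 or 4, 6 without naive replicate 2 or 4 and 15 without TBI replicate 3. With the naive arrays of 2 weeks as controls limma called 0 of the 36, with Cplx2 at -0.67 (adjusted p = 0.069) and Map2 at -0.53 (adjusted p = 0.0974).

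Of 43 tested ion channel genes, 15 fell and 28 were not called (median -0.44). Scn8a, the sodium channel of the axon initial segment, was at -1.52, -0.76, -1.67 and -1.41 in naive and -2.60, -2.56, -1.98 and -2.44 in TBI cortex (difference -1.06 ± 0.21, adjusted p = 0.0123, 1 of 2 probes). Hcn2, a pacemaker channel, was at 0.70, 0.45, 0.21 and 0.32 in naive and -0.999, -0.42, -0.03 and -0.77 in TBI cortex (difference -0.98 ± 0.20, adjusted p = 0.0124). Both kept their call with any array left out. Scn1a, the sodium channel of fast-spiking interneurons, and Cacna1e, an R-type calcium channel, differed by -0.84 ± 0.21 and -1.17 ± 0.32 and lost their call without TBI replicate 1 (adjusted p = 0.0711 and 0.0897), TBI replicate 4 or naive replicate 2 or 4. Cacna1e also lost its call without TBI replicate 2. The count of falls was 4 without TBI replicate 1 or 4 and 6 without naive replicate 2 or 4. It was 1 with the naive arrays of 2 weeks as controls, where Hcn2 was at -0.44 (adjusted p = 0.175) and Scn8a, at -0.92 (adjusted p = 0.0268), kept its call. Of 20 interneuron genes, 2 fell (10%, against 8.62% of all tested genes) and 18 were not called. Cort, cortistatin, was among those that fell (-0.76 ± 0.23) and kept its call in 1 of the 8 leave-outs (adjusted p up to 0.122). The interneuron count was 0 without TBI replicate 1 or 4 or any naive array, with quantile normalization, with the replicate block and with no filter.

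Genes of an immediate early list rose in small part at 24 hr. The list median was -0.26 to 0.21 on the naive arrays and -0.02 to 0.47 on the TBI arrays, so the groups overlapped. Of 36 tested immediate early genes, 5 rose (13.9%, against 8.06% of all tested genes) and 31 were not called (median 0.19). Fos was at -0.78, -0.05, -0.01 and 0.21 in naive and 0.58, 1.05, 0.21 and 1.01 in TBI cortex, a difference of 0.87 ± 0.34 that was not called (adjusted p = 0.0935). Arc, a synaptic activity gene, at 2.70, 3.89, 3.89 and 4.004 in naive and 1.99, 4.14, 3.38 and 2.40 in TBI cortex, and Bdnf, brain-derived neurotrophic factor, at -2.83, -2.73, -1.73 and -1.66 and at -3.03, -1.24, -2.48 and -2.25, were not called either (adjusted p = 0.419 and 0.987), and their groups overlapped. The sign of the Bdnf difference, -0.01, turned when single arrays were left out. Maff, a small Maf transcription factor, rose from -3.15, -3.63, -3.35 and -3.31 to 1.06, -0.51, -0.73 and 1.67 (3.73 ± 0.61, adjusted p = 0.00902) and kept its call with any array left out. Ptgs2, cyclooxygenase 2, rose by 1.59 ± 0.37 (adjusted p = 0.0182) and lost its call without TBI replicate 4 (adjusted p = 0.058). Gadd45b, a growth arrest gene, rose by 1.03 ± 0.31 and kept its call in 1 of the 8 leave-outs (adjusted p up to 0.123). The count of rises was 1 without TBI replicate 4, 2 without TBI replicate 1 or naive replicate 2, 3 or 4, 3 without naive replicate 1 and 8 without TBI replicate 3, and 3 of 33 with the filter required in both groups.

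In a list of neuronal injury and regrowth genes, 12 of 36 rose, 3 fell and 21 were not called (median 0.10). Tubb6, a tubulin, was at -1.34, -1.96, -1.76 and -1.74 in naive and 2.21, 0.82, 0.28 and 2.65 in TBI cortex (3.19 ± 0.66, adjusted p = 0.0131) and kept its call with any array left out. Atf3, a transcription factor of injured neurons and of myeloid cells, was at -0.03, -3.84, -3.08 and 1.32 on the TBI arrays, with replicates 1 and 4 far above the others, and rose by 3.33 ± 0.95. Gal, the neuropeptide galanin, was at 0.80, -2.85, -1.85 and -2.24 in naive and 2.68, -0.42, 0.68 and 3.06 in TBI cortex, so naive replicate 1 lay within the TBI range, and rose by 3.04 ± 0.93. Rgs4, a regulator of G protein signaling, differed by -0.67 ± 0.16 on 1 of 2 probes. Atf3, Gal and Rgs4 lost their call without TBI replicate 1, TBI replicate 4 or naive replicate 4, with adjusted p up to 0.113, 0.132 and 0.0638. In all, these genes kept their call in 2, 3 and 5 of the 8 leave-outs. Rap1b, a small GTPase of the Ras family, rose from 1.54, 1.32, 1.04 and 1.00 to 2.64, 2.17, 1.84 and 2.69 (1.105 ± 0.19, adjusted p = 0.00992) and kept its call. The count of rises in the list was 2 without TBI replicate 1, 4 without TBI replicate 4 or naive replicate 2, 3 or 4 and 8 without TBI replicate 2, and 8 of 30 with the filter required in both groups.

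Myelin and oligodendrocyte genes were not called: of 26 tested, limma called 0 and 2 had an unadjusted p below 0.05 (median -0.07). The median over the list was 0.63, -0.14, -0.07 and -0.36 on the naive arrays and 0.04, -0.48, 0.06 and -0.11 on the TBI arrays, so naive replicate 1 lay above all others. Mbp, myelin basic protein, differed by -0.29 ± 0.20.

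Vessel genes were mixed, with 6 of 30 tested genes higher, 2 lower and 22 not called (median 0.07). Angpt2, angiopoietin 2, which loosens vessels, was at -3.88, -3.93, -3.55 and -3.53 in naive and -2.19, -2.76, -2.03 and -2.27 in TBI cortex (1.41 ± 0.26, adjusted p = 0.011), and Ocln, the tight junction protein occludin, at -0.77, -0.57, -1.28 and -0.50 and at -2.09, -1.93, -1.34 and -2.32 (difference -1.14 ± 0.22, adjusted p = 0.0117, 1 of 3 probes). Neither lost its call when any 1 array was left out. Icam1, which leukocytes bind, rose by 1.41 ± 0.31 and Procr, the protein C receptor, by 1.45 ± 0.34, and they lost their call without TBI replicate 1 (adjusted p = 0.0544 and 0.0669), Procr also without TBI replicate 4 or naive replicate 2 or 4. Esm1, a gene of endothelial tip cells, was at least 2.43-fold higher with no naive array above background and kept its call in 1 of the 8 leave-outs (adjusted p up to 0.116). Rises numbered 1 without TBI replicate 1, 2 without naive replicate 2, 3 without naive replicate 1 or 4 or TBI replicate 2 and 4 without TBI replicate 4, and 5 of 25 with the filter required in both groups.

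Of 40 tested matrix, protease and wound repair genes, 11 rose, 2 fell and 27 were not called (median 0.57). The median difference of sham minus naive over the same genes was 0.51. Besides Timp1, Plau, urokinase, was not above background in naive cortex and stood at -2.18, -3.32, -4.43 and -1.59 in TBI cortex, at least 4.09-fold higher (adjusted p = 0.0091). Timp4, another metalloprotease inhibitor, went down from 1.81, 2.18, 1.62 and 2.07 to 0.66, 1.1001, 1.12 and 0.36 (difference -1.11 ± 0.20, adjusted p = 0.0102). Plau and Timp4 kept their call with any array left out. Mmp3, stromelysin 1, rose by 3.30 ± 0.78 and lost its call without TBI replicate 1 or 4 (adjusted p up to 0.0623). Of the 40, 8 passed the filter only through the TBI arrays, and with the filter required in both groups 6 of 32 rose. The count was 6 without TBI replicate 1 or 4.

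Among 25 heat shock and chaperone genes, 6 rose, 2 fell and 17 were not called (median 0.26). Hspb1, the small heat shock protein HSP27, was at 0.14, -0.16, 0.27 and 0.42 in naive and 5.28, 4.15, 3.78 and 5.34 in TBI cortex, a rise of 4.47 ± 0.79 (adjusted p = 0.0101). Hspa2 rose by 1.57 ± 0.31 (adjusted p = 0.0119). Both kept their call with any array left out. Bag3, a cochaperone, and Hspb8 rose by 1.48 ± 0.41 and 0.91 ± 0.28, Hspb2 differed by -0.51 ± 0.14, and these 3 lost their call without TBI replicate 1 (adjusted p = 0.0851, 0.144 and 0.0943) and naive replicates 2 and 4 in turn. Bag3, Hspb8 and Hspb2 kept their call in 3, 2 and 3 of the 8 leave-outs. In the list the rises numbered 2 without naive replicate 2, 3 without TBI replicate 1 or 4 or naive replicate 3 or 4 and 11 without TBI replicate 3.

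Of 28 genes of the unfolded protein response and of ATF4, 5 rose and 23 were not called (median 0.30). Creld2, a chaperone of the endoplasmic reticulum, was at -0.70, -1.24, -1.03 and -1.05 in naive and 0.41, -0.11, -0.53 and 0.33 in TBI cortex (1.03 ± 0.20, adjusted p = 0.0111), and Sdf2l1, of the same compartment, rose by 0.97 ± 0.17 (adjusted p = 0.00988). Both kept their call. Slc3a2, an amino acid carrier chain, and Hspa5, the chaperone BiP, rose by 0.75 ± 0.17 and 0.63 ± 0.14. Slc3a2 lost its call without TBI replicate 1 (adjusted p = 0.0545), and Hspa5 without TBI replicate 4 or naive replicate 2 (adjusted p up to 0.0518). The count was 3 without TBI replicate 1 or 4 or naive replicate 2 and 9 without TBI replicate 3.

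Of 28 heme, iron, metallothionein and NRF2 genes, 9 rose, 1 fell and 18 were not called (median 0.34). Hmox1, heme oxygenase 1, which breaks down heme, was at -1.12, -1.62, -1.56 and -1.42 in naive and 3.01, 0.33, -0.30 and 4.26 in TBI cortex. Replicates 1 and 4 held most of the rise of 3.26 ± 0.86 (adjusted p = 0.0288), which lost its call without either of them (adjusted p = 0.092 without TBI replicate 1) or naive replicate 2, 3 or 4. Cd163, the scavenger of hemoglobin on macrophages, was at -4.90, -4.61, -4.62 and -3.77 in naive, with 3 arrays above background, and -2.81, -2.10, -1.99 and -3.10 in TBI cortex (1.97 ± 0.36, adjusted p = 0.0105), and kept its call with any array left out. Gpx2, a glutathione peroxidase, rose by 2.20 ± 0.58, and Mt3, the metallothionein of brain, differed by -0.50 ± 0.12. Gpx2 kept its call in 2 of the 8 leave-outs (adjusted p up to 0.0801), and Mt3 lost it without TBI replicate 4 or naive replicate 2 or 4 (adjusted p up to 0.056). The number of rises was 2 without TBI replicate 1 or naive replicate 2 or 4, 3 without naive replicate 3, 4 without TBI replicate 4 and 5 without naive replicate 1. Of the 28, 4 passed the filter only through the TBI arrays, and with the filter required in both groups 8 of 24 rose.

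Most genes of a cell cycle list rose. Of 37 tested proliferation genes, 23 rose and 14 were not called, with a median of 1.26. The list median was 1.99, 0.92, 0.52 and 1.86 on the TBI arrays and -0.12 to 0.21 on the naive arrays. Mcm3, a subunit of the replication helicase, was at -3.41, -3.83, -3.62 and -3.76 in naive and 0.02, -0.62, -1.36 and -0.59 in TBI cortex (3.02 ± 0.63, adjusted p = 0.0129), and Bub1b, a spindle checkpoint kinase, was at least 2.96-fold higher with no naive array above background (adjusted p = 0.00913). Neither lost its call when any 1 array was left out. Mki67, the Ki-67 antigen of dividing cells, was at -4.13, -5.11, -4.83 and -5.01 in naive, with 1 array above background, and -0.89, -1.79, -2.55 and -1.31 in TBI cortex. It rose by 3.13 ± 0.68 on 3 of 3 probes and lost its call without TBI replicate 1 (adjusted p = 0.0528). Aurkb, a mitotic kinase, rose by 3.16 ± 0.85 with overlapping groups and kept its call in 2 of the 8 leave-outs (adjusted p up to 0.0909). With the filter required in both groups 19 of 32 rose. The count was 9 without TBI replicate 1, 12 without TBI replicate 4, 14 without naive replicate 2 and 15 without naive replicate 3 or 4. Of 17 DNA damage response genes, 2 rose (11.8%, against 8.06% of all tested genes) and 15 were not called. Gadd45a, a growth arrest gene, was among those that rose (1.23 ± 0.36) and kept its call in 2 of the 8 leave-outs (adjusted p up to 0.122). The DNA damage count was 0 without TBI replicate 1 or 4 or naive replicate 2 or 4, 1 without naive replicate 3 or TBI replicate 2, 3 without naive replicate 1 and 5 without TBI replicate 3.

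Cholesterol synthesis genes fell in 9 of 27 cases, 2 rose and 16 were not called (median -0.28). Mvd, mevalonate diphosphate decarboxylase, was at 2.28, 2.20, 1.86 and 1.98 in naive and 1.18, 1.23, 1.54 and 1.37 in TBI cortex (difference -0.75 ± 0.12, adjusted p = 0.00898) and kept its call with any array left out. Lss, lanosterol synthase, differed by -0.59 ± 0.17 and lost its call whichever array was left out (adjusted p up to 0.0801). The risers were Ch25h, which makes 25-hydroxycholesterol (1.80 ± 0.39), and Abca1, which exports cholesterol (0.74 ± 0.15, adjusted p = 0.0124). Abca1 kept its call and Ch25h lost it without TBI replicate 1 (adjusted p = 0.0521). The count of falls was 3 without TBI replicate 1, 4 without naive replicate 2 or TBI replicate 2, 5 without naive replicate 4 and 6 without TBI replicate 4 or naive replicate 3.

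Of 26 glucocorticoid response genes, 3 rose (11.54%), 1 fell (3.85%) and 22 were not called. Over all tested genes 8.06% rose and 8.62% fell. Cebpd, a transcription factor also induced by cytokines, was at 0.50, 0.28, 0.32 and 0.38 in naive and 3.58, 2.37, 1.90 and 3.67 in TBI cortex (2.51 ± 0.52, adjusted p = 0.0129) and kept its call. Mt2A, a metallothionein, rose by 1.63 ± 0.46 and kept its call in 2 of the 8 leave-outs (adjusted p up to 0.109), and Bcl6, a repressor, by 0.66 ± 0.16, losing it without naive replicate 2 (adjusted p = 0.0625) or TBI replicate 4. Of 17 clock genes, 1 rose (5.88%, against 8.06% of all tested genes), 2 fell (11.8%, against 8.62%) and 14 were not called. Nr1d1, REV-ERB alpha, differed by -0.64 ± 0.14 and lost its call without TBI replicate 1 or 4 (adjusted p up to 0.0571), while Nfil3 (0.70 ± 0.21) and Npas2 (-0.59 ± 0.16) kept theirs in 1 and 2 of the 8 leave-outs. Of 25 hypoxia and glycolysis genes, 3 rose (12%, against 8.06% of all tested genes) and 22 were not called (median 0.05). Adm, the vasodilator adrenomedullin, rose from -2.20, -2.77, -1.92 and -1.77 to -0.86, -0.69, -1.03 and -0.13 (1.48 ± 0.32, adjusted p = 0.014) and kept its call, and Hk2, hexokinase 2 (0.90 ± 0.26), and Pfkfb3, a regulator of glycolysis (0.61 ± 0.19), kept theirs in 4 and 1 of the 8 leave-outs. The count of glucocorticoid rises was 8 without TBI replicate 3 and 1 without TBI replicate 4 or naive replicate 2, that of clock falls 5 without TBI replicate 3 or naive replicate 1 and at most 1 under the other leave-outs, and that of hypoxia rises 1 without TBI replicate 1 or 4 or naive replicate 2 or 3.

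Controls of another time were tried as well. Against the naive arrays of 2 weeks, which lay on another slide, 460 of 11759 tested genes were called higher and 213 lower. The main fit had 948 and 1013 of 11755. With the 2-week controls 82 named genes lost their call with the same sign, and Oasl, Hk2 and Ppp1r1b lost it with the sign turned. Acacb, Adrb3 and Grid2ip were not tested against these controls. Of the monocyte and macrophage list 20 of 32 rose, of the reactive astrocyte list 17 of 30, of complement 8 of 22 and of acute phase genes 5 of 11. Cytokines and chemokines had 10 rises of 28, and interferon response genes 9 of 31. Receptors and JAK-STAT genes had 8 of 27, and proliferation genes 13 of 37. NF-kB genes had 5 of 25, neutrophil genes 5 of 9 and cell death genes 5 of 22. Heme and iron genes had 4 of 28, and matrix genes 6 of 40. Heat shock genes had 3 of 25, MHC class 1 genes 3 of 15 and MHC class 2 genes 3 of 8. Neuronal injury genes had 3 of 36, and T and B cell genes 2 of 11. Vessel genes had 1 of 29 and immediate early genes 1 of 36. Hypoxia genes had 0 of 25 and DNA damage genes 0 of 17 by limma. In the other direction the cholesterol list had 6 falls of 27 and the homeostatic microglia list 0 of 20.

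**Figure D4:**
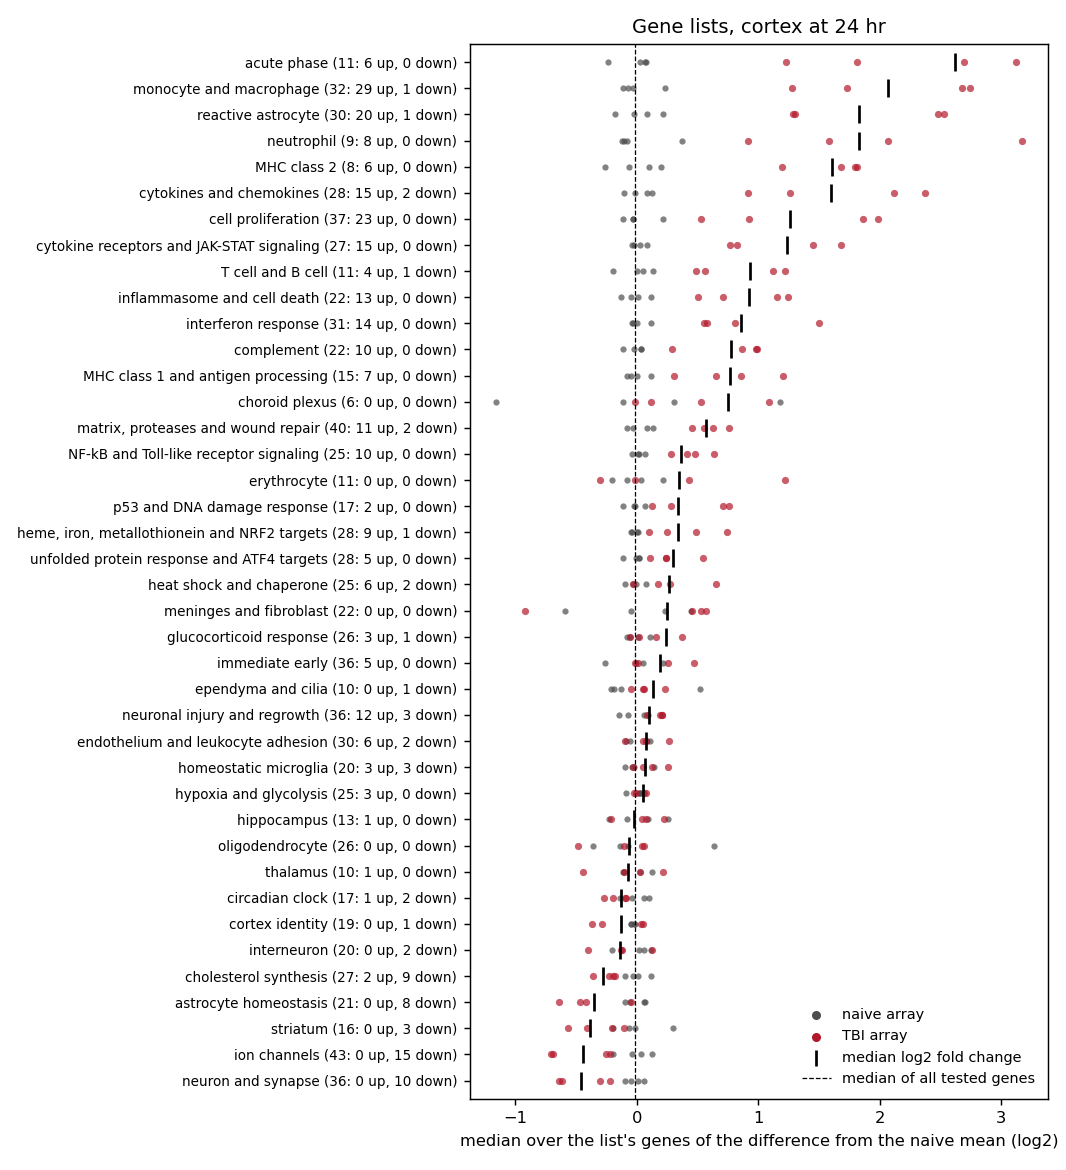
Each row is a gene list, with the median over its tested genes of the difference from the naive mean (log2) on each naive and TBI array, and the median log2 difference as a tick; the dashed line is the median of all tested genes, -0.02. Monocyte and macrophage, neutrophil, reactive astrocyte and proliferation medians reach at least 0.52 on every TBI array, and neuron and ion channel medians are -0.22 or lower on every TBI array.

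The labelled tissue was checked against marker genes. Neuron (Snap25, Syt1, Slc17a7, Rbfox3), astrocyte (Gfap, Aqp4, Slc1a2, Aldh1l1), oligodendrocyte (Mbp, Mog, Mobp), microglia (P2ry12, Cx3cr1, Csf1r, Aif1) and cortex markers (Tbr1, Cux2, Rorb, Lamp5) were above background on all 8 arrays. Rbfox3, NeuN, differed by -0.61 ± 0.10 (adjusted p = 0.0091) and kept its call with any array left out (adjusted p up to 0.0361). Of 19 cortex identity genes 1 was called, Neurod2, a transcription factor of excitatory neurons (-0.59 ± 0.15), which lost its call without TBI replicate 1 (adjusted p = 0.0793), 2 or 4 or naive replicate 2 or 4. Of 16 striatum genes, 3 fell and 13 were not called: Pde10a, a phosphodiesterase also made in cortex (-1.09 ± 0.21, adjusted p = 0.0115), which kept its call, and Adcy5 (-0.70 ± 0.18) and Ppp1r1b (-0.44 ± 0.13), which each kept it in 2 of the 8 leave-outs. The striatum median was 0.30, -0.20, -0.06 and -0.01 on the naive arrays and -0.41, -0.20, -0.11 and -0.57 on the TBI arrays. Choroid plexus (6 tested), meninges and fibroblast (22) and erythrocyte genes (11) had 0 limma calls, with 0, 4 and 0 at an unadjusted p below 0.05. Without TBI replicate 4, 3 of 23 meninges and fibroblast genes were called higher, and without TBI replicate 3, 1 of 22 lower. Their medians ran from -1.16 to 1.18, -0.59 to 0.45 and -0.21 to 0.22 on the naive arrays and from -0.02 to 1.08, -0.92 to 0.57 and -0.31 to 1.22 on the TBI arrays. Of the hippocampus, thalamus and ependyma lists 1 gene each was called, Wfs1 (0.73 ± 0.14), which kept its call, and Rgs16 (1.31 ± 0.38) and Dnai1 (-0.88 ± 0.24), which kept theirs in 3 and 2 of the 8 leave-outs. The part of tissue makeup in the neuronal and astrocyte falls was not tested.

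The sham arrays, on the slide of the naive arrays, fell into a spread of their own for the leading genes. Serpina3n was at -1.78, 1.63, -2.24 and 1.27 in sham cortex, above every naive array and below every TBI array. Lcn2 was at 0.90, 3.86, -1.01 and 3.17, Timp1 at 0.86, 5.27, 1.63 and 3.63, and Hspb1 at 1.18, 4.94, 0.71 and 3.89. Sham replicates 2 and 4 were the high ones for each of these. Gfap, at 2.75, 3.81, 3.88 and 4.62, overlapped both groups. The kininogen Kng1, at -3.27, 1.75, -0.91 and -0.65, had the range of the TBI arrays. Msr1, Ccl2 and Il1b, at -6.51, -3.32, -5.95 and -1.51, at -4.49, -1.14, -3.97 and -0.16, and at -4.83, -2.87, -5.26 and -1.95, had sham replicates 1 and 3 near naive. Over the monocyte and macrophage list the sham medians were 0.17, 1.53, 0.21 and 1.73, and over the reactive astrocyte list 0.33, 1.77, 0.49 and 1.43. In the same model sham minus naive called 189 probes (0.729%) and 77 genes (0.655%), and TBI minus sham called 1 (0.00386%), with 3933 at an unadjusted p below 0.05 (15.2%). The comparisons share arrays, so no overlap is given. Serpina3n, Lcn2, Kng1, Kng2l1, Kng2, Lbp and Cp were called in sham against naive as well. The difference was 4.36 for Lcn2, 4.12 for Lbp, with 2 naive arrays above background, and 2.29 for Cp, and for the others no naive array was above background.

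Injured and naive cortex was also taken at 2 weeks, on 8 other arrays. The TBI minus naive difference, which holds the surgery as well, was compared between the times by an interaction term. Of 26050 probes tested, 604 differed between 24 hr and 2 weeks (2.32%), 318 with the higher value at 24 hr (1.22%) and 286 with the lower (1.1%). At 2 weeks itself 1876 probes were called (7.2%). By gene, 289 differed between the times (2.46%) and 937 were called at 2 weeks (7.97%). Serpina3n passed the interaction test with the higher value at 24 hr (adjusted p = 0.0033), though no naive array of either time was above background for it. Lcn2 differed by 7.42 at 24 hr and 1.69 at 2 weeks (0.0033), Timp1 by 4.87 and 1.63 (0.0027), Hspb1 by 4.47 and 1.44 (0.0059), S100a9 by 3.89 and -0.86 (0.019) and Il1b by 4.26 and 0.36 (0.048), where the bracketed values are adjusted p of the interaction. In the proliferation list 15 of 37 genes differed between the times, and the list median was 1.26 at 24 hr and 0.01 at 2 weeks. Mcm3 differed by 3.02 and 0.81 (0.0081), and Mki67 by 3.13 and 0.68 (0.04). Cartpt was at -3.34 and 0.33 (0.0032), and Fos at 0.87 and -1.08 (0.019).

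In the homeostatic microglia list 10 of 20 genes differed between the times, with medians of 0.07 at 24 hr and 1.06 at 2 weeks. P2ry12 was at -1.36 and 0.92 (interaction adjusted p = 0.021), P2ry13 at -1.52 and 0.59 (0.022), Ctss at -0.71 and 1.52 (0.0027) and Cd4 at -0.63 and 1.26 (0.014). The MHC class 2 median was 1.60 at 24 hr and 2.46 at 2 weeks, and the interferon response median 0.85 and 1.62, with 0 of 8 and 2 of 31 genes past the interaction test by limma. The monocyte and macrophage median was 2.07 and 2.02, and Lgals3 (4.61 and 3.45) did not pass the interaction test. Neither did Spp1, Clec7a and Plau, for which no naive array of 1 or both times was above background. Aldh1l1 (-1.26 and -0.12) and S100b (-0.73 and 0.20) passed it with the lower value at 24 hr (adjusted p = 0.014 and 0.027). Naive replicate 4 of 2 weeks had 65.2% of probes well above background, more than the other 2-week arrays, at 53.6 to 58.4%, and without it 353 probes differed between the times. Slide and group cannot be told apart at 2 weeks either.

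**Figure D5:**
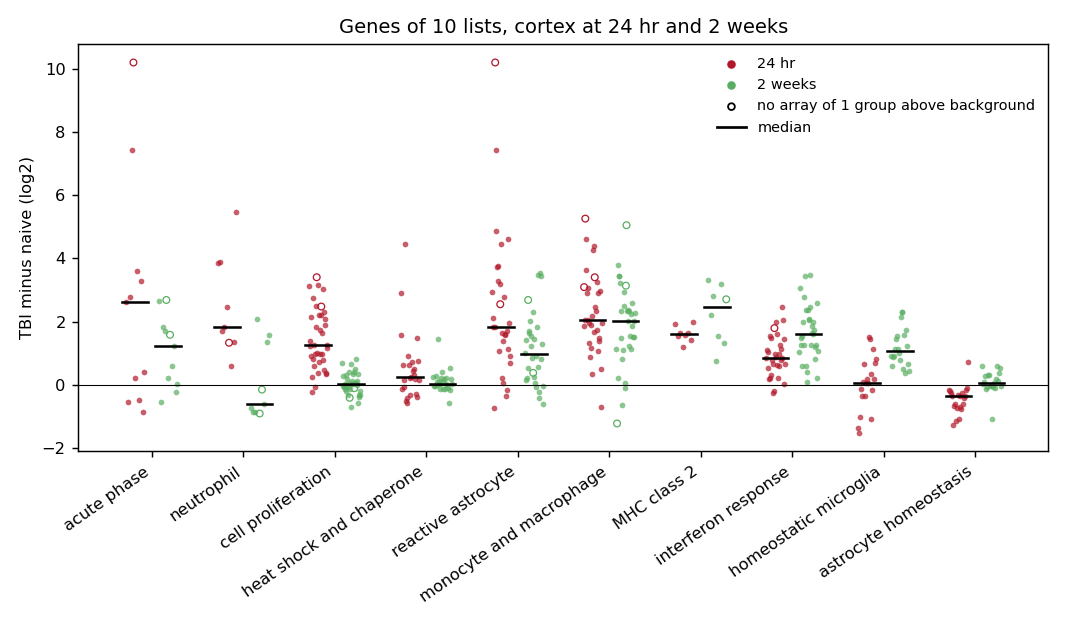
Each point is a gene of 1 of 10 lists, with its log2 difference TBI minus naive at 24 hr (red) and at 2 weeks (green), open points had no array of 1 group above background, and black bars are list medians. Proliferation genes have a median of 1.26 at 24 hr and 0.01 at 2 weeks, and homeostatic microglia genes of 0.07 and 1.06.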

How the data were processed

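RNA of rat cortex was hybridized in 1 color to Agilent arrays with 60-mer probes. Per the labels, the authors scanned them and extracted signals with Agilent Feature Extraction 11.5.1.1. The deposited scanner files hold per-spot intensity, background-subtracted (processed signal), with the median spot and background intensity and flags for spots above background. The deposited value table holds, per the authors, normalized linear intensity of the same arrays. Set against the scanner values, at least 99.96% of probes well above background lay within 0.05 log2 of the processed signal over a single constant for each array, at percentile 74.9 to 75.0 of the array, with medians of 0.0731 to 0.219 over the 20 arrays used, while the methods name the array median. Other arrays were not used.

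Here log2 intensity minus the 75th percentile of each array was fitted with limma 3.58.1 (R 4.3.3) over 12 cortex arrays of 24 hr (naive, sham, TBI), contrast TBI minus naive. Control spots and spots flagged as outliers (239 to 692 per array) were left out and spots of a probe averaged. Probes were tested when well above background on every array of the naive or TBI group, and called at a Benjamini-Hochberg adjusted p below 0.05. No spot was saturated. The interaction with time used the 16 naive and TBI arrays of 24 hr and 2 weeks. The bound "at least N-fold" divides the mean of the bright group by that of the dim group, in which each array takes the higher of its own signal and the lowest signal well above background. The mean spot signal was not among the columns, so the normexp alternative (offset 50) used the median spot signal. Gene symbols came from RefSeq transcript accessions, which matched for 21109 of 45598 probes (46.3%), covering 16581 genes, with the brightest probe for each gene. The 40 gene lists and the compared groups were chosen with earlier results of these data known. Genes named are, by rule, the 15 largest rises and falls of called genes whose groups do not overlap, up to 4 called genes of each list plus the called gene most opposed, and 20 genes of injury studies; marker genes of cell types and a few other genes are named with them. The fit was checked on simulated data with known changes. Depth is given by the share of probes above background, and the number of arrays limits the precision. Alternatives were scaling, background correction, filter, arrays in the fit, replicate block, array weights and the mean of all tested probes of a gene. Other naive arrays as controls and leaving out each array were tried as well. Some genes counted in the lists and among the named genes are not reported here by name.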

Additional observations from a re-analysis of the deposited data

Results flagged for a closer look

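Single arrays lay far from the other 3 of their group, with a gap to the nearest, as a share of the range, beyond Dixon's 95% critical value, in 15 of 400 groups of 4 tested over named genes and list medians. Chance gives about 1 in 20. On the naive arrays these were the log2 levels of Ccl7 on replicate 3 (-4.93), Rgs11 on replicate 4 (-0.68), Socs3 on replicate 2 (-2.67), C5ar1 on replicate 4 (-2.17), Cd86 on replicate 1 (-3.94), Cort on replicate 2 (2.66) and Arc on replicate 1 (2.70). Of the list medians relative to the naive mean, acute phase on naive replicate 2 (-0.24), neutrophil on naive replicate 4 (0.37), hypoxia and glycolysis on naive replicate 2 (-0.091) and ependyma and cilia on naive replicate 1 (0.52) lay apart. On the TBI arrays these were Ccr2 on replicate 3 (-4.24) and Ifitm1 on replicate 1 (2.62), and the medians of the neuronal injury list on replicate 3 (0.086) and of the meninges and fibroblast list on replicate 4 (-0.92).

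The TBI minus naive difference at 24 hr was unlike that at 2 weeks, by the interaction term of limma, in 30 of 159 named genes tested, 19 with the higher value at 24 hr and 11 with the lower. In 6 of the 19, Serpina3n, Kng1, Kng2, Kng2l1, Ccr2 and Bub1b, no naive array of 24 hr was above background, so no size is given. The value at 24 hr minus that at 2 weeks, on the log2 scale, was 5.73 for Lcn2. It was 4.75 for S100a9, 3.90 for Il1b, 3.23 for Timp1 and 3.03 for Hspb1. In the cell cycle genes Mki67 and Mcm3 it was 2.45 and 2.21. In Tubb6, Maff, Ptgs2 and Fos it was 2.87, 2.83, 2.11 and 1.94, and in Wfs1 and Nfil3 1.33 and 1.16. Among the lower ones it was -3.79 for C14h1orf146, -3.67 for Cartpt and -1.82 for Mei1. In genes of microglia and macrophages it was -2.28 for P2ry12, -2.23 for Ctss, -2.11 for P2ry13 and -1.89 for Cd4. In astrocyte and neuron genes it was -1.14 for Aldh1l1, -0.93 for S100b and -1.04 for Scn1a. Each of these groups of arrays lay on its own slide, apart from the sham arrays beside naive at 24 hr, so the slide cannot be told apart from group and time.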

How the results depend on the processing

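Counts of called probes moved by more than 1.5 times under 3 settings besides leaving out an array. Array weights gave 7497 called probes (3300 higher, 4197 lower) against 4179, and the naive arrays of 2 weeks as controls gave 1509 (770 higher, 739 lower). With no filter on dim probes 1101 were higher, and 13688 passed 1.4-fold with an unadjusted p below 0.05, against 5611. Leaving out 1 array at a time gave 1187 to 7077 called probes, 547 to 3085 higher, 640 to 3992 lower and 4554 to 7212 past 1.4-fold. Median scaling gave 4531 and the table of the authors 4155, and split the calls alike within 10 percentage points. The count of probes that differed between 24 hr and 2 weeks, 604, was 283 with median scaling, 247 with quantile normalization, 50 with no filter, 2867 with array weights and 125 to 2413 with 1 array left out. Deviations of same-numbered naive and TBI arrays correlated at 0.33, 0.04, 0.06 and -0.06, and those of other pairs at -0.22 to 0.13. Replicate 1 lay above the other pairs and the rest within their range, so these values do not settle whether replicate numbers pair the samples. With the replicate block 3395 probes were called (1579 higher, 1816 lower) and 455 differed between the times.

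Of 2975 values of named genes under the alternatives, 2408 kept direction and side of the threshold. A further 558 lost the call in the same direction, 2 gained it and 7 changed sign. The alternative with the mean of all tested probes of a gene had no p-value of its own. Its values took the p-value of the main fit, so they could not lose a call. Against the naive arrays of 2 weeks Oasl was at -0.28, Hk2 at -0.071 and Ppp1r1b at 0.23. Bdnf, not called, was at 0.16, 0.18, 0.25 and 0.065 without naive replicate 3, naive replicate 4, TBI replicate 1 and TBI replicate 3, within a range of -0.35 to 0.25 with 1 array left out. Of 760 list medians 728 moved by less than the spread between arrays. The causes were not tested. The signal over background limits genes dim in naive cortex, 75 of which have only a lower bound on their rise.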
